A study of Mus musculus with 3 samples.

Results

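The genes described here are 10 secreted proteins of the extracellular matrix, namely fibronectin (Fn1), the matricellular proteins Sparc, periostin (Postn), tenascin-C (Tnc) and the thrombospondins Thbs1 and Thbs2, and the proteoglycans versican (Vcan), decorin (Dcn), lumican (Lum) and biglycan (Bgn). They were chosen by name. All their probe sets that the platform annotation ties to a single gene symbol were taken, which gave 27 of 34945 such probe sets, for 10 of 18193 genes. RNA came from NIH3T3 cells, an immortalised mouse fibroblast line grown in DMEM with calf serum. The 2 control arrays (control 1 and control 2) carry RNA of untreated cells with an empty vector, whose labels speak of basal expression. The other array, called the shRNA array, carries RNA of cells expressing an shRNA, a short hairpin RNA, that targets retinol saturase (RetSat). Its label calls these cells highly resistant to t-BHP, an organic peroxide. The shRNA arm belongs to a screen for increased resistance to oxidative stress, and the comparison asks how transcript levels in the resistant cells differ from those in cells with the vector alone. The sources used here do not say whether either kind of cell was a clone or a pool, or whether the control arrays came from separate cultures.

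Fibroblasts secrete fibronectin as a soluble dimer and assemble it into fibrils through integrins, and these fibrils serve as a template for other matrix proteins. Matricellular proteins sit in the matrix but mainly act as signals. They bind growth factors, collagens and cell surface receptors, loosen or strengthen adhesion, and are typically raised in wounds and growing tissue. Versican is a large chondroitin sulfate proteoglycan that binds hyaluronan, whereas decorin, biglycan and lumican are small leucine-rich proteoglycans that coat collagen fibrils or bind growth factors.

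The label of the shRNA array was checked on its target. Retsat, which saturates a double bond of retinol, read 416 and 495.9 on control 1 and control 2 and 69.5 on the shRNA array at its brighter probe set, or 15.2% of the control mean. Its unadjusted p in limma was 0.000432 and its adjusted p 0.9999. Where 3 signals of a gene are given in a row below, they stand in the order control 1, control 2, shRNA array. Log2 values are log2(signal + 10.2). The arrays had been scaled to the same trimmed mean of 250 signal units before deposit, and their median signals were 35.7 to 39.4. Of 10 fibroblast markers, 9 passed the filter on dim genes (a mean log2 signal at or above the median of all probe sets), with summed signals of 77709 to 80298, and Fap was at or below 6.6 on every array. Of 6 epithelial markers 4 passed, with summed signals of 290 to 331. The 5 endothelial, 4 blood, 3 fat and 4 muscle markers on the array all failed that filter. Of 4 cartilage and bone markers on the array 2 passed, namely Sox9 (571, 1011.5 and 882.6) and Sp7 (15.8, 87.6 and 56.5). Control 1 stood apart from the other arrays over genes, but not on the hybridisation controls. Over the 10843 genes that passed the filter, the standard deviation of the log2 difference was 0.739 between the control arrays and 0.336 between the shRNA array and control 2. Set against control 1, the median gene lay 0.136 log2 higher on control 2 and 0.141 higher on the shRNA array. Of 18 hybridisation control probe sets, 16 read higher on control 2 than on control 1, by a median of 0.18 log2, and all 18 read higher on the shRNA array than on control 2, by a median of 0.24. The sample titles give the shRNA array the number 2, as they do control 2, without saying what the number stands for. Whatever it stands for cannot be told apart from other differences of control 1.

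None of the 10 genes passed limma's test of the shRNA array against the controls, and the lowest adjusted p among them was 0.9999. At their brightest probe sets, all but Thbs1 differed less between the shRNA array and control 2 than between the control arrays. This is not particular to them, since the median absolute differences of all genes were 0.154 and 0.414 log2. Among their other probe sets past the filter, it did not hold at Sparc 1448392_at and 1458204_at or at Vcan 1433044_at. Of all 10843 genes tested 0 passed in either direction (0.0% higher and 0.0% lower, 108 genes at an unadjusted p under 0.05), and limma was the only tool run. All 10 passed the filter at their brightest probe set, although Postn did so only through control 1. By a rule of size (past 2-fold from each control array, in one direction) 1 of the 10 was lower (Postn; 0.498% of all genes) and 0 were higher (0.0922% of all genes). Because Postn was tested only through its signal on control 1, nothing is read from that count. The shRNA array read below both control arrays for 6 of the 10 (Fn1, Postn, Thbs1, Thbs2, Tnc and Vcan), where 25.4% of all genes did, and above both for 2 (Bgn and Sparc), where 34.4% did. By probe set, it read below both at 13 of 22 (29.2% of all probe sets) and above both at 3 (30.8%). Without control 1, 6 genes read lower and 4 higher. The median of all genes against control 2 was 0.00 log2, so nothing is read from this split. Against control 2 alone, 1 was past 2-fold lower (Postn; 1.01% of all genes) and 0 past 2-fold higher (0.719%). The median log2 difference from the mean of the control arrays was -0.15 for the 10 genes and 0.07 for all genes. It was -0.38 against control 1 and -0.10 against control 2, where the medians of all genes were 0.14 and 0.00. In the limma fit each gene has 1 residual degree of freedom, from the 2 control arrays. The spread of each gene is drawn toward that of all genes. Standard errors of the 10 genes ran from 0.4997 to 1.06 log2, where the median of all genes was 0.512. Misses of this fit thus do not show that levels were equal.

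**Figure D1:**
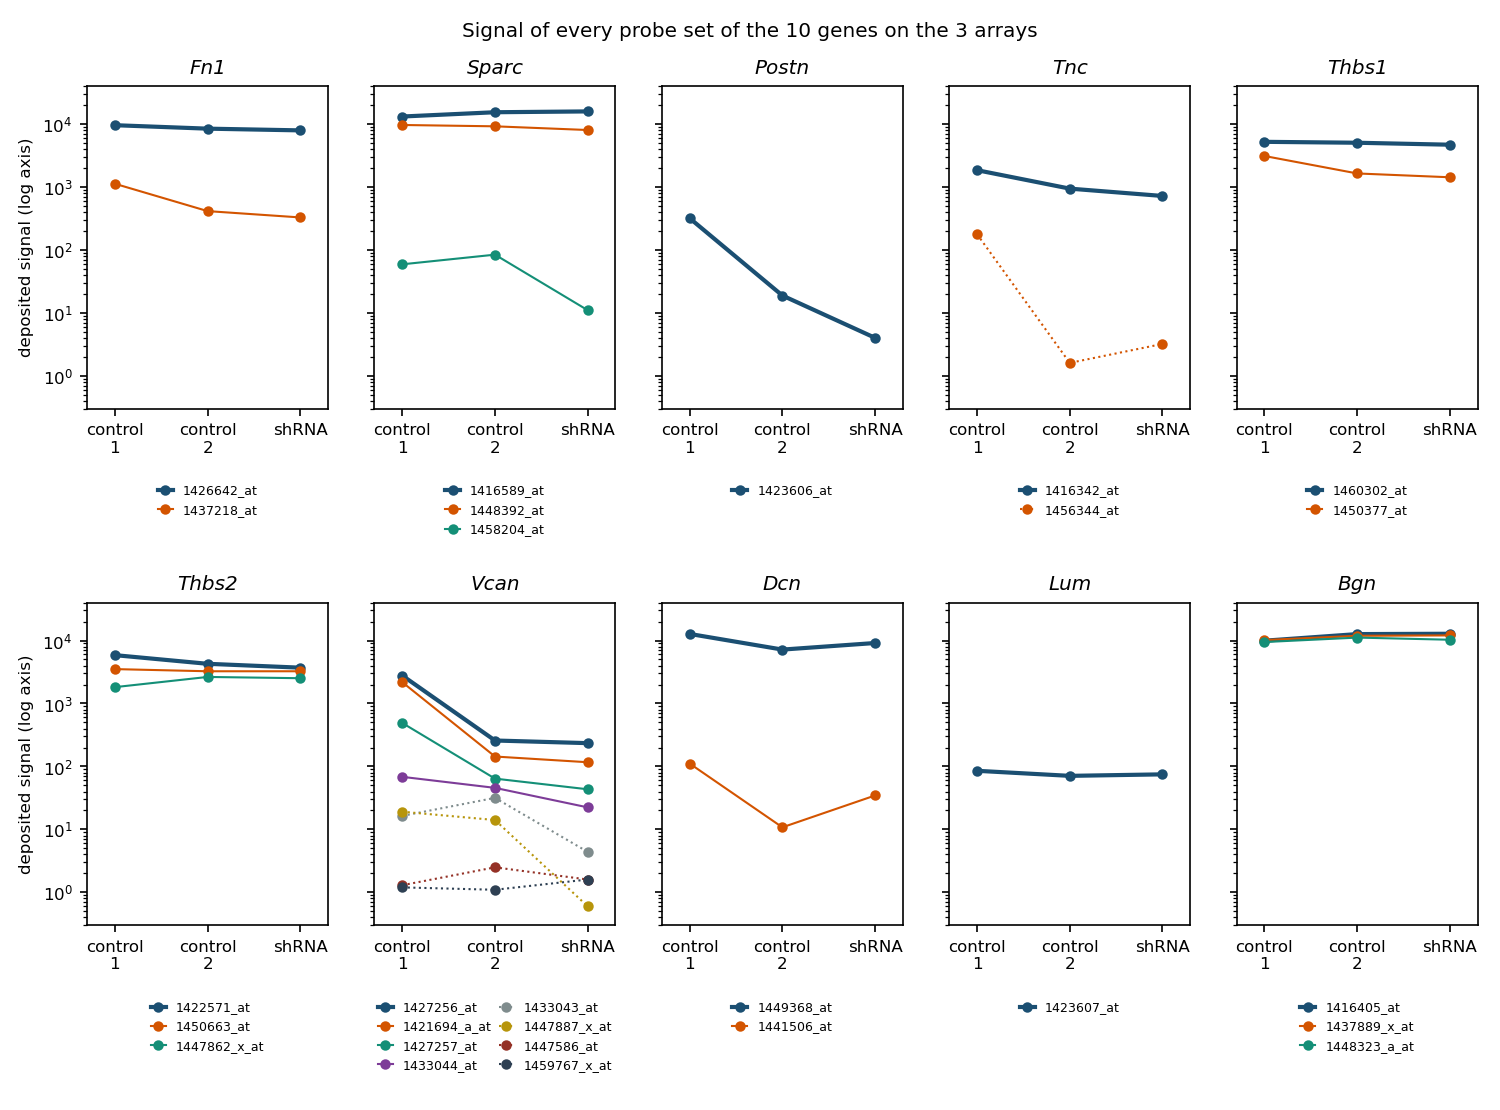
Deposited signal (log axis) of every probe set of the 10 genes on control 1, control 2 and the shRNA array, with 1 point per array and a line joining the points of a probe set. Thick lines mark the probe set that represents the gene and dotted lines those under the filter on dim signals. The 3 bright Vcan probe sets lie far higher on control 1 than on the other arrays, while the Bgn lines rise only slightly from control 1 to control 2 on this axis.

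Fibronectin read much the same on the 3 arrays at its brighter probe set and not at the other. Probe set 1426642_at read 9537 and 8405 on the controls (8971 ± 800.4, SD, n = 2) and 7892 on the shRNA array, or 88.0% of the control mean. The shRNA array was lowest, and its difference from control 2 was -0.091 log2, smaller than the -0.18 between the control arrays. Probe set 1437218_at read 1120.1, 412 and 327. Here control 1 was 2.72 times control 2, so the probe sets of this gene differed by 1.24 log2 in how far the control arrays lay apart. A spread of at least this size between probe sets was found in 17.5% of the 5131 genes with several probe sets past the filter.

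Sparc, a collagen-binding matricellular protein also known as osteonectin, was bright throughout, and its probe sets did not order the arrays alike. At 1416589_at it read 13104 and 15323 on the controls (14213 ± 1569, SD, n = 2) and 15790.5 on the shRNA array. At 1448392_at it read 9613 and 9156 on the controls (9384 ± 323, SD, n = 2) and 7999 on the shRNA array. The shRNA array was thus the highest at the first and the lowest at the second, by 0.043 and -0.19 log2 from control 2. A dim probe set, 1458204_at, read 58.9 and 83.8 on the controls and 11.0 on the shRNA array. The last signal was under the median of its array (35.7), so this probe set passed the filter only through the control arrays. No fold is given for it, and nothing is read from its place in the count or from the p that follow. When every probe set was tested on its own, 1458204_at was the 1 of 22 member probe sets beside Postn at least 2-fold below both control arrays (0.932% of all 19518 probe sets), and 0 were above (0.149%). Its unadjusted p in limma was 0.00746 and its adjusted p 0.9999.

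The thrombospondins are trimeric or larger secreted glycoproteins that bind CD36, CD47 and integrins, and Thbs1 can activate latent TGF-beta. Thbs1 read 5193 and 5022 on the controls (5107 ± 121, SD, n = 2) and 4673 on the shRNA array at 1460302_at. The shRNA array was the lowest, by -0.10 log2 from control 2, a larger distance than the -0.048 between the control arrays. It was small against the standard error of 0.4997 in limma, which is drawn toward the spread of all genes. The other probe set, 1450377_at, read 3093, 1634 and 1420.2. It set control 1 apart and left the other arrays within -0.20 log2 of each other. A further probe set that the annotation gives to both Thbs1 and another gene was not used.

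Thbs2 read 5861 and 4270.5 on the controls (5066 ± 1124, SD, n = 2) and 3707 on the shRNA array at 1422571_at, or 73.2% of the control mean. The shRNA array was lowest there, at a distance of -0.20 log2 from control 2, within the -0.46 between the control arrays. At 1450663_at it read 3517 and 3250.1 on the controls and 3250.4 on the shRNA array, which were nearly equal. At 1447862_x_at it read 1819 and 2639.9 on the controls and 2521 on the shRNA array, so that control 1 was the lowest array at this probe set and the highest at the others. The shRNA array was below both control arrays at 1 of these 3 probe sets.

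Tenascin-C, a hexameric glycoprotein that counters adhesion to fibronectin, was lower on the shRNA array than on either control array. It read 1840.4 and 938 on the controls (1389 ± 638, SD, n = 2) and 717 on the shRNA array at 1416342_at. The ordering put control 1 far above, at 1.96 times control 2, and the shRNA array at 0.765 times control 2. The difference from the mean of the control arrays was -0.86 log2 (SE 0.562 in limma), and without control 1 it was -0.38. A dim probe set, 1456344_at, read 177 on control 1 and 1.6 and 3.2 on the others, where it lay far below those arrays' median signals. It failed the filter.

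Periostin, which binds integrins and collagen and is a known product of matrix-forming fibroblasts, was bright enough to be measured well above the array medians on control 1 alone. Its only probe set, 1423606_at, read 317 on control 1, 18.8 on control 2 and 4.0 on the shRNA array. Control 1 was thus the highest array by far. The shRNA array was a further -1.03 log2 below control 2, on the log2(signal + 10.2) scale. Both of these signals were under the median of their array (37.9 and 35.7), so this is a difference between dim signals that no detection call sets above background, and no fold is given against either. Postn was no longer at least 2-fold below both control arrays with an offset of 50, with centred arrays or after quantile normalization. With an offset of 1 it failed the filter and was not tested. Its difference between the control arrays was -3.50 log2, beyond the -3.38 of Vcan, but with an offset of 50 these were -2.42 and -3.20, so that their order depends on the offset. Its limma difference was -2.78 log2 (SE 1.06, unadjusted p = 0.0245, adjusted p = 0.9999).

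Versican differed far more between the control arrays than between the shRNA array and control 2. At 1427256_at it read 2778 and 258 on the controls (1518 ± 1782, SD, n = 2) and 235 on the shRNA array. At 1421694_a_at it read 2178, 144 and 117, and at 1427257_at it read 490.3, 64.1 and 43.4. All 3 placed control 1 highest, at 7.65 to 15.1 times control 2, and the shRNA array lowest, at 0.677 to 0.908 times control 2. Another probe set past the filter, 1433044_at, was dim and read 68.4, 45.7 and 22.4. The 4 that failed it read between 0.6 and 31.7, below the median of every array. Versican transcripts are alternatively spliced, and the sources used here do not give which of them a probe set detects. Against the mean of the control arrays the difference at the brightest probe set was -1.82 log2 (SE 1.03 in limma, adjusted p = 0.9999). It was -3.51 against control 1 and -0.13 against control 2. A distance from control 2 of at least this size was found in 55.6% of all genes.

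The promoters of the 3 genes with the largest range over the arrays (Postn, Vcan and Tnc) are shown beside that of Bgn, whose range was 0.366 log2. Sparc, which also had a window, had a smaller range of 0.269 log2 at its brightest probe set. They are 300-base windows from RefSeq on build GRCm38.p6, from 250 bases before the annotated start to 50 after it, written 5′ to 3′ on the strand of the gene. 6 of the 10 genes had a window (Sparc, Postn, Tnc, Thbs2, Vcan and Bgn). For Postn and Tnc, which have 2 annotated starts, the downstream one is printed. Capitals mark, on either strand, the TATA box written TATAAA, the CCAAT box, the GC box written GGGCGG and the AP-1 motif written TGANTCA. The AP-1 letters were in none of the 8 windows of these genes.
Vcan (chr13:89742463-89742762, reverse strand): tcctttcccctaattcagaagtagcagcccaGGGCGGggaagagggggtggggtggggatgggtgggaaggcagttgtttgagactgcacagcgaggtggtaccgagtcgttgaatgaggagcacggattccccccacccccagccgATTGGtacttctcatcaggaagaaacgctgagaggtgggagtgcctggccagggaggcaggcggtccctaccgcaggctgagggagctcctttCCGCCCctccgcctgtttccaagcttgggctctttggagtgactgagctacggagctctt
Postn (chr3:54360857-54361156, forward strand): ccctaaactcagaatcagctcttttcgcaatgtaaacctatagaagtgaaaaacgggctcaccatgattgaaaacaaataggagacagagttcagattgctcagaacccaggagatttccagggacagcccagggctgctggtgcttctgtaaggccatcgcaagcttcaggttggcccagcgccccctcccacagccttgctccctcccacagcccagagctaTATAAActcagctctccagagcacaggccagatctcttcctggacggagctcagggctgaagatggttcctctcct
Tnc (chr4:64046887-64047186, reverse strand): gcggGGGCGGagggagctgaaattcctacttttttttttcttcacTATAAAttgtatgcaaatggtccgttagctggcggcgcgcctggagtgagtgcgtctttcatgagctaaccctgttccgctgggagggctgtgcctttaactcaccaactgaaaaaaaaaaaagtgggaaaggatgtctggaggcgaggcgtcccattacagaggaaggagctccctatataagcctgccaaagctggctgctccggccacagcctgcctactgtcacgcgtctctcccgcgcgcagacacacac
Bgn (chrX:73483351-73483650, forward strand): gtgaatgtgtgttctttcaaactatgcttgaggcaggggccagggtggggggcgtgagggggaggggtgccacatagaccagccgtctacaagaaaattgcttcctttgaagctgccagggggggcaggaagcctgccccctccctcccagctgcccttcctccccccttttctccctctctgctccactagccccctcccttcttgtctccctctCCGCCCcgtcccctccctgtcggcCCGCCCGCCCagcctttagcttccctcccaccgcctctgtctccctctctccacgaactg
The motifs differed among the 3 genes. TATAAA began 26 bases before the Postn start and 205 before the Tnc start, and neither the Vcan nor the Bgn window held it. Only these exact letters were sought. Other spellings are not marked, such as the tatataag that lies nearer the Tnc start. GGGCGG stood in the Vcan, Tnc and Bgn windows, with 3 copies on the reverse strand in Bgn, of which 2 overlap. CCAAT lay on the reverse strand of Vcan. Of all 32851 windows in the table, 13.6% held TATAAA, 35.7% the GC box, 37.4% the CCAAT box and 7.81% the AP-1 motif. GC content was 61.0% for Vcan, 53.0% for Postn, 54.0% for Tnc and 63.7% for Bgn, where the median of all windows was 52.7%.

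Decorin, which binds collagen and TGF-beta, was lowest on control 2. It read 12727 and 7181 on the controls (9954 ± 3921, SD, n = 2) and 9134 on the shRNA array at 1449368_at. The shRNA array thus lay between the control arrays, 0.35 log2 above control 2 and -0.48 from control 1. Its dim probe set, 1441506_at, read 111, 10.8 and 34.6. The signals on control 2 and the shRNA array were under the medians of those arrays (37.9 and 35.7). No order is therefore read from this probe set. At 1449368_at the difference from the mean of the control arrays was -0.066 log2, and it changed sign to 0.024 once each array was centred on its median.

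Lumican and biglycan, the other small leucine-rich proteoglycans, had ranges of 0.236 and 0.366 log2 over the arrays at their brightest probe sets. Lum, which organises collagen fibrils in cornea and skin, read 85.3 and 70.9 on the controls (78.1 ± 10.2, SD, n = 2) and 74.9 on the shRNA array at its only probe set, 1423607_at. The shRNA array lay between the control arrays, and its difference from their mean was -0.048 log2, but 0.041 with centred arrays and 0.12 after quantile normalization. Among the protein-coding genes in the annotation of GRCm38.p6, Lum and Dcn are direct neighbours. Kera, the keratocan gene on the other side of Lum, read 6.4, 26.1 and 3.5, below the filter. Bgn, which can signal through Toll-like receptors, read 9939 and 12654 on the controls (11296 ± 1920, SD, n = 2) and 12809 on the shRNA array at 1416405_at. At 1437889_x_at it read 10169 and 11899.9 on the controls and 12056.5 on the shRNA array. At 1448323_a_at it read 9460 and 11136 on the controls and 10295 on the shRNA array. Its 3 probe sets differed from each other by 0.12 log2 between the control arrays, and 90.2% of genes with several probe sets had a spread of at least this size.

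**Figure D2:**
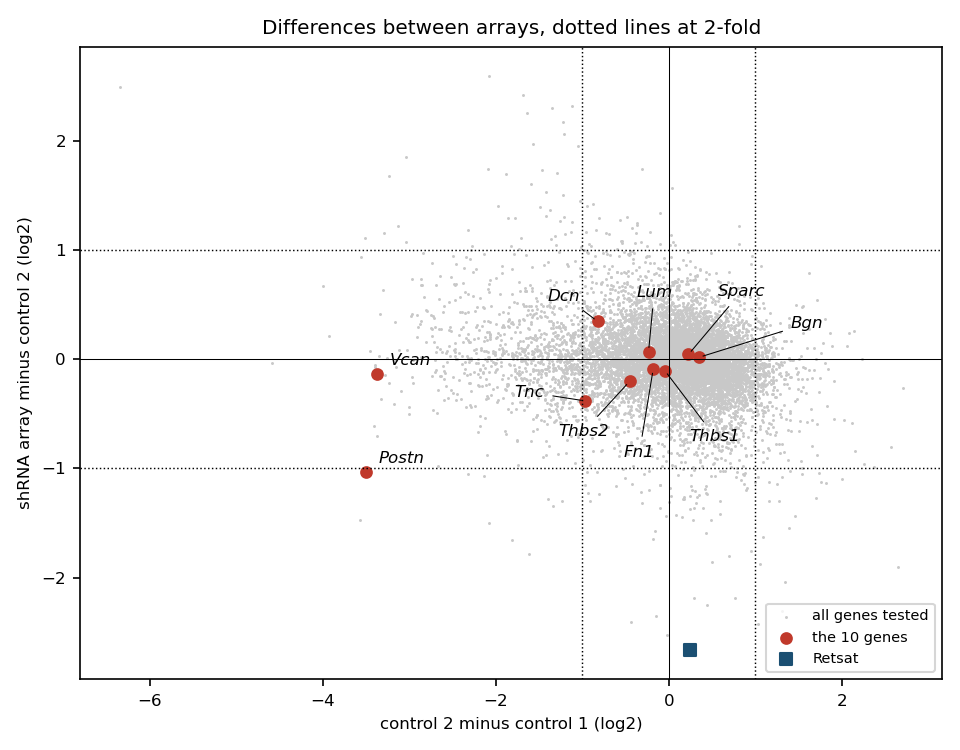
Difference between the control arrays (control 2 minus control 1, log2, horizontal axis) against the difference of the shRNA array from control 2 (log2, vertical axis), with 1 point per gene. Vcan at -3.38 and Postn at -3.50 lie far to the left among the 10 genes (red), whose vertical positions run from -1.03 to 0.35, while Retsat (blue square) lies at -2.67 on the vertical axis. Control 2 enters both axes, so a trend between them is not to be read.

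The distance between the control arrays was thus the main variation among these genes. Control 1 was the highest array for 8 of the 10 and the lowest for Bgn and Sparc, where it was the highest for 34.2% of all genes and the lowest for 52.6%. After quantile normalization Lum no longer read higher on control 1 than on control 2 (0.015 log2). Control 1 was at least 2-fold above control 2 for 2 of the 10 (Postn and Vcan; 9.32% of all genes) and at least 2-fold below it for 0 (3.41%). With every probe set on its own, it was at least 2-fold above control 2 at 6 of 22 (1 of Dcn, 1 of Fn1, 1 of Postn and 3 of Vcan; 11.6% of all probe sets). Postn and this dim Dcn probe set passed the filter only through control 1. Nothing is therefore read from their place in these counts, or from the value of Postn that follows. Relative to the median of all genes, control 2 lay at -3.63 log2 for Postn, -3.51 for Vcan, -1.10 for Tnc, -0.96 for Dcn and -0.59 for Thbs2. The other 5 lay between -0.37 (Lum) and 0.21 (Bgn).

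Some genes of cell division were also high on control 1. The summed signal of 5 markers was 26171 on control 1 against 16709 on control 2 and 16576 on the shRNA array. Mki67, the Ki-67 proliferation antigen, read 3234, 125 and 122. Top2a, a DNA topoisomerase, read 5904, 654.5 and 624, and the replicative helicase subunit Mcm6 read 3027, 1623 and 1309.9. Pcna, the replication clamp, read 10420.2, 10141 and 10310.2, and the mitotic kinase Cdk1 read 3585, 4165 and 4210.1, lowest on control 1. The summed signal of 5 contractile genes was lowest on control 1, at 1617 against 2649.9 on control 2 and 2642 on the shRNA array. Most of it came from Acta2 (1488.8, 2390.7 and 2332.3). Of the others, Tagln read 38.4, 165.9 and 198.2, while Actg2 was nearly level at 63.2, 67.5 and 72.5. Cnn1 (8.1, 17.7 and 18.7) and Myh11 (18.4, 8.1 and 20.7) failed the filter, so that 3 of the 5 passed. The part of cell division or contractile genes in the differences of Postn, Vcan and Tnc was not tested.

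The genes nearest to these 3 in pattern were sought by the distance between log2 values centred over the 3 arrays, which is a likeness over 3 values only. Nearest to Vcan were Tax1bp1 (1707, 153 and 145), the condensin subunit Smc4 (3032, 291.5 and 270.4) and Hmgn5 (610.2, 48.7 and 46.7), at distances of 0.0476 to 0.0615 log2. Nearest to Tnc were the Fanconi anaemia gene Fanci (223.5, 109.9 and 80.9), Txndc16 (257, 125 and 93.9) and the centriole kinase Plk4 (1029, 531 and 411), at 0.0119 to 0.0321. Nearest to Postn, and farther from it, were the kinetochore gene Cenpf (1280.4, 114 and 66), the cohesin subunit Smc3 (1886, 168 and 106) and the noncoding Kcnq1ot1 (872, 64.2 and 16.6), at 0.326 to 0.393. Dim signals of Postn, under the medians of their arrays, enter these distances. Its difference between the control arrays was -3.50 log2, but -2.42 with an offset of 50, so its pattern depends on the offset. Nothing is therefore read from the genes nearest to Postn.

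Gene span was set beside the distance between the control arrays. Among the 10 genes Lum had the shortest genomic span at 7.20 kb and Vcan the longest at 87.7 kb, followed by Tnc at 87.2 kb and Fn1 at 67.8 kb. Across these genes Spearman's rho between span and the difference of control 2 from control 1 was -0.66 (n = 10 genes, measured on the same arrays). Postn enters this value, although it passed the filter only through control 1. Across 10827 genes with a span it was -0.25. For the difference of the shRNA array from control 2, rho was -0.43 across the 10 genes, Postn included, and -0.14 across the 10827. Of the 2166 genes with the longest spans 16.0% read at least 2-fold higher on control 1 than on control 2, compared with 1.89% of the 2166 with the shortest. Postn did not follow the order, since its span was 31.8 kb and its difference was -3.50 (-2.42 with an offset of 50), and Fn1 had a long span and a difference of -0.18. Genes on one array are not independent of one another, so no test is given.

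**Figure D3:**
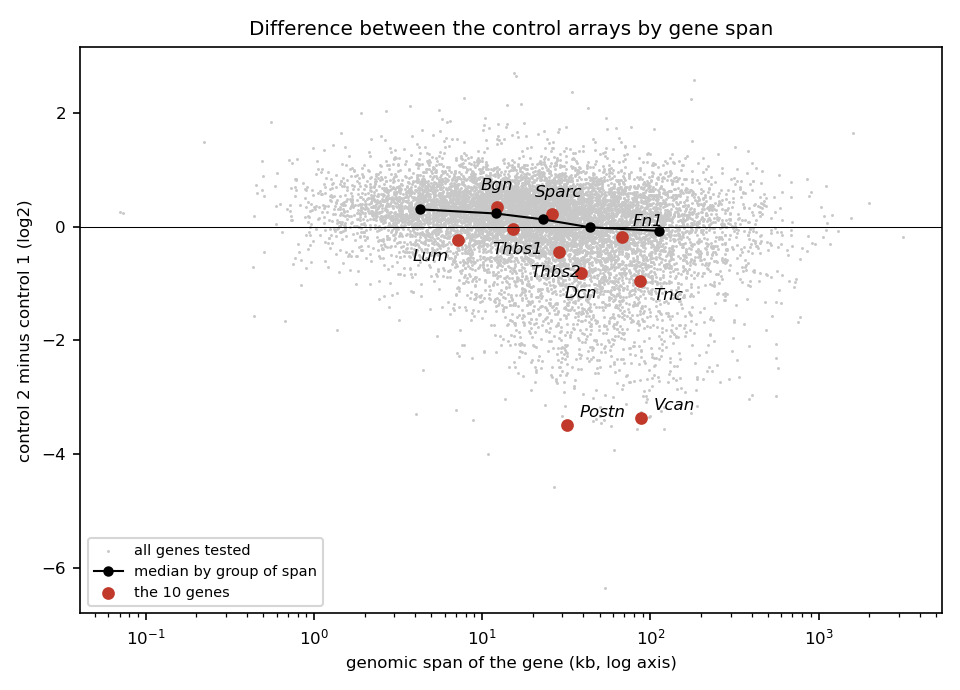
Control 2 minus control 1 (log2, vertical axis) against the genomic span of each gene (kb, log axis), with all genes tested in grey, the 10 genes in red and black points at the median of each of 5 equal groups of genes by span. The black points run from 0.30 log2 in the shortest group to -0.08 in the longest, and Postn and Vcan lie far below them.

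Other genes of the same matrix were counted by list. Of all genes tested, 0.0922% were at least 2-fold above both control arrays and 0.498% at least 2-fold below both. None of the 84 list genes tested beside the 10 was, and at such low shares nothing is read from that. None passed limma. Of 13 other matricellular genes tested, the shRNA array was above both control arrays for 4 and below both for 4, with a median of 0.13 log2 against control 1 and -0.031 against control 2. Tnxb, a tenascin of connective tissue, read 87.6 and 96.0 on the controls and 159 on the shRNA array, and Ccn1, an integrin ligand, read 973, 843 and 1184. Ccn4 read 511, 539 and 559, and Fstl1 read 9633, 7379 and 7157. Over all genes, 34.4% read above both and 25.4% below both.

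Of 5 other small leucine-rich proteoglycans tested, 1 was above both arrays (Prelp, at 848, 983 and 1238) and 1 below both (Nyx, at 49.5, 52.5 and 21.7), with medians of 0.26 log2 against control 1 and -0.069 against control 2. Of 8 other matrix proteoglycan and hyaluronan genes, 0 were above both and 2 below both. These were the hyaluronidase Cemip2 (464, 496 and 355) and the heparan sulfate proteoglycan Agrn (378, 357 and 351). The median of that list was 0.40 log2 against control 1 and -0.30 against control 2. The versican-binding link protein Hapln1, a direct neighbour of Vcan among annotated protein-coding genes, read 4.3, 3.2 and 20.0 and failed the filter. Has2, which makes hyaluronan, read 620.2, 298 and 383. Of 17 genes for glycosaminoglycan chain synthesis, 7 were above both arrays and 3 below both, with medians of 0.36 and -0.088 log2 against control 1 and control 2. Xylt2, which starts the chains on proteoglycan cores, read 99.2, 62.4 and 34.9, B4galt7, which extends the linker, read 73.7, 104 and 136, and the sulfotransferases Chst7 and Chst12 read 95.8, 110.2 and 140.5 and 300.1, 551 and 677.

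Of 14 genes of elastic fibres and fibronectin-bound matrix, 8 were above both control arrays and 0 below both. Dermatopontin (Dpt), which binds decorin, read 99.3 and 224 on the controls and 273 on the shRNA array. The microfibril gene Mfap5 read 706, 971 and 1174, Matn2 read 164, 257.5 and 292, and Ltbp2 read 435, 478 and 538.5. In each of these the difference between the control arrays was in the same direction, and the list's median was 0.32 log2 against control 1 and 0.06 against control 2.

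Of 17 receptors for the 10 proteins, 7 were above both control arrays and 4 below both, with medians of 0.16 and 0.019 log2 against control 1 and control 2. Syndecan-3 (Sdc3) read 88.8, 142 and 203, and the integrin subunits Itgb5 and Itga5 read 1204.5, 1659 and 1938 and 336, 341 and 376. The receptor kinase Met, a decorin partner, read 626.5, 262.5 and 213. Syndecan-1 (Sdc1) was lowest on control 1, at 1108, 2377 and 2265, and the hyaluronan receptor Cd44 read 3787, 3984 and 4171. Of 10 enzymes known to cleave the 10 proteins, 6 were above both arrays and 1 below both, with medians of 0.32 and 0.091 log2 against control 1 and control 2. Adamts1, which cleaves versican, was the lower one at 460 and 506 on the controls and 362 on the shRNA array. Another versican-cleaving protease, Adamts9, read 128 on control 1 against 28.7 and 38.7. It was the only 1 of the 10 enzymes that was highest on control 1, while 7 were lowest there. The gelatinase Mmp9 read 36.0, 59.5 and 87.6, the aggrecanase Adamts4 read 112, 120 and 146, and Bmp1, which processes biglycan, read 187, 191 and 217.

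**Figure D4:**
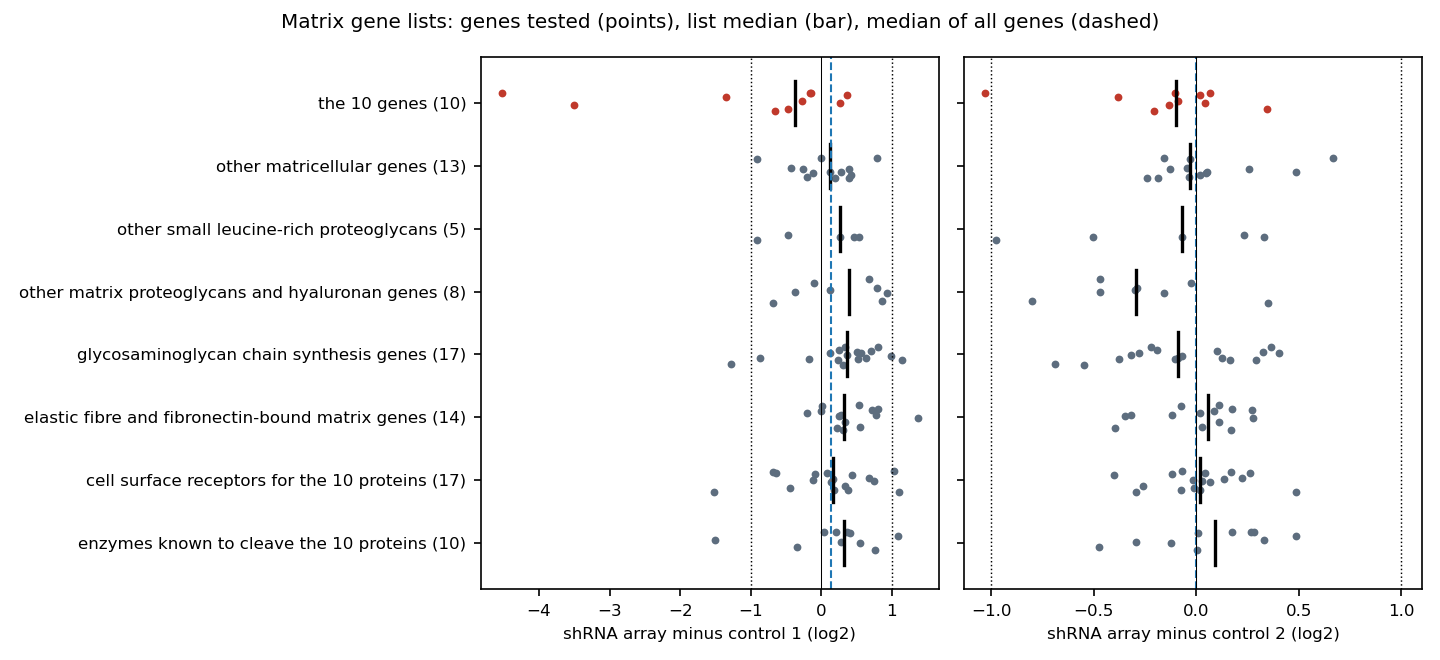
Log2 difference of the shRNA array from control 1 (left) and from control 2 (right) for each tested gene (1 point) of 8 matrix gene lists, with the list's median as a bar, the median of all genes as a dashed line and dotted lines at 2-fold. Against control 1 the 10 genes (red) run down to -4.53 with a median of -0.38, and against control 2 only Postn lies past 2-fold. Both panels share the shRNA array.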

How the data were processed

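Values are intensities on a linear scale that the authors deposited, 1 per probe set (45101) and array. From the values, the 2% trimmed mean was 250 on each array, so they had been scaled. The sources used here do not name the summarisation software. The lowest signal was 0.1 and the highest 30189.8, without detection calls, and the number of arrays limits the precision. The platform annotation gave gene names, and lookup by gene ID in RefSeq (GRCm38.p6) changed 0 symbols. No genome build comes with the files, so no gene coordinates are given other than those of the RefSeq promoter table.

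From these values log2(signal + 10.2) was computed, the offset being the 25th percentile of all deposited values, so fold changes of dim genes are understated. The brightest probe set stood for a gene, and the test took genes whose mean log2 signal was at least the median over all probe sets. Limma 3.58.1 (R 4.3.3; lmFit, eBayes, two-sided, Benjamini-Hochberg over all genes, threshold 0.05) was fitted on all 3 arrays. With 1 shRNA array, which is assumed to vary like the controls, p-values measure only the spread between the control arrays, which may be technical. The eBayes step draws that spread of each gene toward the spread of all genes. The script was tested on simulated data. Groups came from the sample titles. The genes, lists and tests were chosen with earlier results of these data known. Beside the 10 genes, those named are Retsat, up to 4 per list with the largest smaller difference from the 2 control arrays, and the 3 nearest to each of 3 members. Has2, Hapln1, Kera, Cd44, Sdc1, Adamts9 and the markers named singly were chosen after their values were seen.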

Additional observations from a re-analysis of the deposited data

How the results depend on the processing

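No paired analysis was possible because the groups share fewer than 2 replicate numbers, namely only the number 2 of control 2 and the shRNA array. Of all genes, 10 were at least 2-fold above and 54 below both control arrays. The counts were 22 and 88 with an offset of 1, 1 and 6 with an offset of 50, 386 and 415 without a filter, 0 and 1 with the 75th percentile filter, and 29 and 182 with every probe set on its own. Those above were 20 with the arrays centred on their medians and 24 after quantile normalization, and those below were 30 with the mean over probe sets. Leaving out 1 control array, where the other alone is compared, gave 78 to 374 above and 110 to 1104 below. Limma passed 1 gene with centred arrays and 7 with a robust variance prior, and 0 of the 10 genes under every fit. At least 2-fold from both controls were 1 of the 10 genes as reported, 0 with an offset of 1 or 50, with the 75th percentile filter, with centred arrays and after quantile normalization, 2 of 22 with every probe set, and 1 to 3 without a control array (3 without control 2). Below both were 6 genes, 13 of 22 probe sets, and 6 to 8 genes without a control array. Above both were 2 genes, 1 after quantile normalization, 0 with the mean over probe sets, and 2 to 4 without a control array (4 without control 1). At least 2-fold higher on control 1 than on control 2 were 2 genes, 1 with an offset of 1 or the 75th percentile filter, 4 with the mean over probe sets and 6 of 22 probe sets. Fewer members were tested with an offset of 1 (9) and with the 75th percentile filter (8). The difference of the shRNA array from the mean control changed sign for Sparc with the mean over probe sets (-0.67 log2). For Dcn it did so with centred arrays (0.024) and without control 1, where leaving out 1 control gave -0.48 to 0.35. For Lum it did so with centred arrays (0.041), after quantile normalization (0.12) and without control 1, with a range of -0.17 to 0.069. That of control 2 from control 1 changed sign for Lum after quantile normalization (0.015). The cause was not tested for any of these. The other differences of the 10 genes kept their sign under every alternative run. The single shRNA array has no spread of its own, and dim signals cannot be set above background without detection calls.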
